A study of Mus musculus with 23 samples.

Results

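Oligodendrocytes of the mouse brain were described here in a single-cell RNA study of cells sorted by how much of a fluorescent antibody they carried. A barcode that held at least 500 genes and 800 UMIs (unique molecular identifiers, 1 per captured RNA molecule) and at most 10% mitochondrial UMIs was called a member when it had a UMI of at least 4 of 8 oligodendrocyte genes (Mog, Mag, Mobp, Ermn, Opalin, Tubb4a, Slc24a2, Edil3). The summed UMIs of these 8 genes also had to be at least 2 times those of 8 genes of endothelial cells, astrocytes, microglia and mural cells (Cldn5, Flt1, Aqp4, Gja1, Cx3cr1, P2ry12, Kcnj8, Acta2). The rule found 8031 members among 249715 passing barcodes of 23 libraries. Members were thus selected on measured RNA levels, and the 16 genes of the rule are given below as description only.

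Oligodendrocytes wrap axons in myelin, a stack of membrane rich in cholesterol and glycolipid. They arise from dividing precursors through a short newly formed stage, in which Gpr17, a receptor that marks cells just before they myelinate, is switched on and then off again. Mature oligodendrocytes are the cells richest in iron in the brain. They make transferrin (Trf) and store iron in ferritin, while the transferrin receptor (Tfrc) takes transferrin-bound iron into cells. CD98hc (Slc3a2) is the heavy chain that pairs with several amino acid transporters, among them LAT1 (Slc7a5).

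ATV, or antibody transport vehicle, names antibodies whose Fc part was engineered to bind a receptor of brain capillaries. ATV-TfR (labelled DNP02_hIgG1_LALAPG_ATV35.23.2 - Alexa647) binds the transferrin receptor and was given to TfR mu/hu KI mice, which carry a mouse/human knock-in of it. ATV-CD98hc (DNP02 LALAPG LLB2-10-8 monovalent - Alexa647) was given to CD98hc mu/hu KI mice, and the control IgG (DNP02_hIgG1_LALAPG_Alexa647) to C57BL/6 mice, so treatment and genotype cannot be told apart. All mice were 3.3 months old in the sample labels (12 weeks in the series' design text), received 45 mg/kg into the tail vein and were taken 24 h later, and the antibodies of all 3 groups carried the dye AF647 and the LALAPG change, which lowers binding to Fc receptors. The brain was used without olfactory bulbs, cerebellum, pons and medulla, and was dissociated with inhibitors of transcription and translation. Excess myelin was spun out in sucrose. Live cells were sorted into an AF647-negative bin and into low, medium and high bins, whose gates split the positive cells found after ATV-TfR into tertiles. Each library is 1 bin of 1 pool of 1 male and 1 female mouse. Every treatment had 2 pools (replicates 1 and 2), and the negative bin of control IgG is represented by replicate 2 alone.

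Library totals ran from 1861238 to 90307818 UMIs. Members had a library median of 4497 to 8953 UMIs in the 13 libraries with at least 20 of them. Of the 8031 members, 6475 had a UMI of all 8 rule genes. Markers outside the rule were also high in them: in the negative bins, Mbp, the gene of myelin basic protein, was at a mean of 4492 CPM (the UMIs of a gene summed over the cells of a class in a library and scaled by their total) in members, 122 in microglia, 59.5 in astrocytes and 148 in endothelial cells. Sox10, the transcription factor of the lineage, was at 364, 5.32, 2.19 and 6.89. At the border of the rule, 239 barcodes had 4 of the 8 genes, with a median of 11 marker UMIs, and 135 of them were members. The 351 barcodes with 3 of the genes had a median of 4. Of all members, 889 (11.1%) also met the rule of another cell class, most often astrocytes (572), microglia (109), mural cells (87) or endothelial cells (55). Their median depth was 9126 UMIs, against 5719.5 in the others. They were more common in the low and medium bins. In ATV-TfR they were 9.75% and 6.53% of negative, 19.8% and 22.1% of low and 19.0% and 14.1% of medium members. In ATV-CD98hc they were 7.26% and 6.64%, 26.8% and 21.0%, and 16.9% and 18.2%. The control IgG negative library had 12.3%. Of the members, 6.33% had a barcode sequence that also occurred in another library, as did 6.14% of all passing barcodes, and 10 sequences were members in more than 1 library.

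Oligodendrocytes were found mostly among the AF647-negative cells. In the negative bin of ATV-TfR, members made up 21.3% of barcodes in replicate 1 (1918 of 8988) and 19.5% in replicate 2 (1301 of 6656). Their share was 2.66% and 1.65% in the low bin, 0.655% and 0.550% in the medium bin, and 0.0716% (14 cells, exact 95% binomial interval 0.0392% to 0.120%) and 0.0227% (4 cells, 0.00619% to 0.0581%) in the high bin. The bins did not overlap in either pool, and each step up in fluorescence held a smaller share of all barcodes. Astrocytes made up 75.8% and 77.7% of the medium bin, and endothelial cells 95.2% and 96.3% of the high bin. With endothelial barcodes out of the denominator the high bin of replicate 1 lay above its medium bin. The shares were then 21.7% and 19.8% (negative), 2.73% and 1.68% (low), 0.824% and 0.684% (medium) and 1.51% and 0.608% (high).

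ATV-CD98hc gave the same order over all barcodes. Members were 19.0% (1268 cells) and 17.4% (602) of the negative bin and 1.36% and 0.938% of the low bin. They were 0.332% (59 cells) and 0.267% (55) of the medium bin and 0.00959% (1 cell) and 0.0374% (5) of the high bin. With endothelial barcodes out of the denominator the medium bin lay above the low one in both pools: the shares were 19.2% and 17.7%, 1.60% and 1.10%, 2.81% and 2.29%, and 0.156% and 0.803%. The control IgG negative library held 11.8% (1435 of 12167), and the positive bins of that treatment held 4 and 13 members (low), 2 and 0 (medium) and 1 and 0 (high). The medium replicate 2 and high replicate 2 libraries of control IgG had 801 and 725 barcodes, so 0 members there allow a share of up to 0.375% and 0.414% (3 counts of the total).

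**Figure D1:**
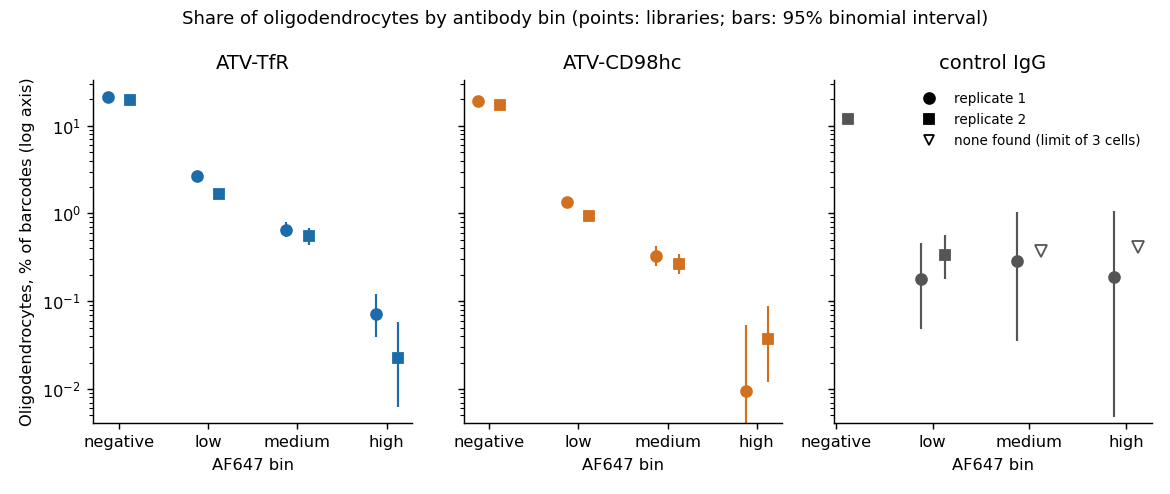
Share of barcodes that were oligodendrocytes (percent, log axis) in each library, by AF647 bin and treatment; points are libraries with exact 95% binomial intervals. In both ATV treatments every library of a higher bin lies below every library of a lower bin.

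Per bin, the logit of the share changed by a slope of -2.04 in ATV-TfR (-2.17 and -1.91 without replicate 1 or 2) and -2.18 in ATV-CD98hc (-1.996 and -2.36), each with p = 0.00079, the smallest the exact two-sided permutation of the bin labels can give (adjusted p = 0.0012 over 3 trends). In control IgG it was -1.17 (exact permutation p = 0.051), and 0.18 without replicate 2. In edgeR's quasi-likelihood test on cell numbers per class, the log2 changes against the negative bin of ATV-TfR were -3.25 (SE 0.43) in the low, -5.08 (0.47) in the medium and -8.70 (0.58) in the high bin. They were -3.98 (0.45), -5.92 (0.49) and -9.44 (0.64) in ATV-CD98hc, and -5.44 (0.57), -6.44 (0.78) and -7.18 (0.88) in control IgG. The Benjamini-Hochberg adjusted p over the classes was at most 1.8e-06 in every comparison of the ATVs. Control IgG has 1 negative library, and its medium and high bins held 2 and 0 and 1 and 0 members. Its changes take their spread from the other groups, so they cannot tell the bins apart from that library. The sizes rest on the denominator, although the changes in both ATVs kept their direction and call. With endothelial barcodes left out the changes were -3.23, -4.78 and -4.23 in ATV-TfR and -3.77, -2.86 and -5.27 in ATV-CD98hc, and with TMM factors over the classes -2.11, -3.84 and -4.86 and -4.10, -5.56 and -9.26. Most classes changed too: 90.0%, 70.0% and 100.0% of 10 classes were called in the low, medium and high bins of ATV-TfR, 50%, 70.0% and 80.0% in ATV-CD98hc and 90.0%, 80.0% and 70.0% in control IgG. The falls in ATV-TfR and ATV-CD98hc were set against each other: their difference was 0.73 (SE 0.56), 0.84 (0.58) and 0.74 (0.86) on the log2 scale in the low, medium and high bins, which did not pass the test (adjusted p 0.35, 0.25 and 0.50, where 50%, 40.0% and 60.0% of classes did). The differences rest on it too: without endothelial barcodes the medium difference passed in the reverse direction (-1.92, adjusted p = 0.0077, edgeR), and with TMM factors over the classes the high one passed (4.40, adjusted p = 0.00054). In a sorted bin, a share falls when other cells fill it: endothelial cells numbered 111921 and astrocytes 101119 over all bins.

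Oligodendrocytes were also counted against microglia, whose own distribution differed between treatments. Microglia were 28.5% ± 6.44 (SD, n = 2) of the negative and 2.72% ± 0.549 of the low bin of ATV-TfR, but 8.99% ± 2.11 and 12.0% ± 1.87 in ATV-CD98hc. The change in their number from the negative to the medium bin differed between ATV-TfR and ATV-CD98hc (-2.90, SE 0.73, adjusted p = 0.0022, edgeR; 40.0% of classes called), where that of oligodendrocytes did not pass. Members per microglia barcode numbered 0.645 and 0.815 in the negative bin of ATV-TfR, 0.855 and 0.708 in the low and 1.46 and 1.44 in the medium bin. In ATV-CD98hc the ratio was 1.81 and 2.32 in the negative bin, but 0.103 and 0.0881 in the low and 0.250 and 0.423 in the medium bin. The slope of the log2 ratio per bin was -0.11 in ATV-TfR (exact permutation p = 0.70), -1.43 in ATV-CD98hc (p = 0.039, adjusted 0.058) and -2.001 in control IgG (p = 0.038, adjusted 0.058). None of the 3 passed the adjusted threshold, and the slope of ATV-TfR turned to 0.16 without its replicate 2.

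The labels give about 30% of live cells as positive in ATV-TfR. With that and equal tertiles, an estimated 2.21% (replicate 1) and 1.60% (replicate 2) of oligodendrocytes were AF647-positive. Members that also met another rule, more common in the low and medium bins, are counted in this estimate. The same calculation gave 54.6% and 44.5% for astrocytes, 91.5% and 92.2% for endothelial cells, 1.55% and 1.64% for microglia and 3.74% and 3.22% for mural cells. The gates were not tertiles in the other treatments. There the share lay anywhere between 0.0126% and 1.76% (replicate 1) and between 0.0538% and 1.33% (replicate 2) in ATV-CD98hc, with about 20% positive cells.

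The rule genes themselves, given as description, did not shift together. Mag had 2451 and 2742 CPM in the negative bin of ATV-TfR and 4355 and 5828 in the medium bin. Mobp went from 1577 and 1734 to 2787 and 3413. Edil3 went the other way, from 1801 and 1494 to 776 and 622, and Ermn from 1467 and 1603 to 828 and 1056.

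Expression was compared between bins of a treatment with edgeR's quasi-likelihood test on the summed UMIs of 13488 genes, and a gene is called below when its Benjamini-Hochberg adjusted p is under 0.05. The high bins and the positive bins of control IgG had fewer members per library than the minimum of 20 set here and were left out. The medium bin was added once their numbers were known. In ATV-TfR 1247 genes (9.25%) differed between the low and negative bins, 974 higher (7.22%) and 273 lower (2.02%), and 2715 (20.1%) between the medium and negative bins, 1666 higher (12.4%) and 1049 lower (7.78%). In ATV-CD98hc 1005 genes (7.45%) differed in the low bin, 858 higher (6.36%) and 147 lower (1.09%), and 460 (3.41%) in the medium bin, 384 higher (2.85%) and 76 lower (0.563%). With replicate 1 or replicate 2 of the treatment left out, the counts were 564 and 571 (low) and 809 and 1247 (medium) in ATV-TfR, and 429 and 644 (low) and 195 and 228 (medium) in ATV-CD98hc. With members that met the rule of another class left out, 586 genes were called in the low bin of ATV-TfR, 411 in the low and 304 in the medium bin of ATV-CD98hc. Both bins of a treatment are set against the same negative libraries, so their counts are not independent.

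RNA typical of other cells moved with the bins, and its part in the differences was not tested. Of 10 endothelial genes 6, 9, 10 and 10 rose in the low and medium bins, first of ATV-TfR and then of ATV-CD98hc, where 7.22%, 12.4%, 6.36% and 2.85% of all genes rose. Esam fell in the low bin of ATV-TfR (-2.31). Their summed level was 30.6 to 45.8 CPM in the negative members of ATV-TfR, 157 to 165 in the low and 168 to 169 in the medium bin, and in ATV-CD98hc 38.0 to 48.8, 312 to 431 and 1138 to 1250. Of 10 astrocyte genes 9, 9, 9 and 0 rose, from 1155 to 1254 CPM to 4164 to 4385 and 3410 to 3835 in ATV-TfR, and from 1533 to 1650 to 4223 to 4911 and 781 to 2473 in ATV-CD98hc. All 10 microglia genes fell in both bins of ATV-TfR, where 2.02% and 7.78% of all genes fell. Their sum went from 537 to 941 CPM to 78.6 to 190 and 45.7 to 108, and no microglia gene was called in ATV-CD98hc. Vtn, a mural gene, was at 261 and 151 CPM in the negative and 5.27 and 3.00 in the low bin of ATV-TfR. Of 8 mural genes 4 and 7 fell in the 2 bins, against the same shares of all genes.

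The genes with the largest changes were in part of this kind. In the low bin of ATV-TfR the largest rises were those of Il1b (5.00), Tnr (3.74), Ptprt (2.75), Vcam1 (2.59) and Mcc (2.56). Il1b, an inflammatory cytokine, was at 28.6 and 26.2 CPM in the low and 0.084 and 1.81 in the negative bin, and its call was lost with DESeq2 and when members that met another rule were left out. The MHC class II genes H2-Eb1 and H2-Aa, which present antigen in macrophages, had no UMI there and were at least 56.8-fold and 39.8-fold lower than in the negative bin, where replicate 2 held more than replicate 1 (H2-Eb1 52.7 and 15.6 CPM). In the medium bin of ATV-CD98hc 5 genes absent from its negative members led: Adgrl4, at least 298-fold higher, Abcb1a (at least 263-fold), Ctla2a (198-fold), Fgd5 (112-fold) and Srarp (91.0-fold). Abcb1a, a drug efflux pump, is an endothelial gene. Haemoglobin genes were lower in both positive bins of ATV-CD98hc: Hba-a1, for example, had 56.3 and 10.1 CPM in the negative members and no UMI in the medium ones, at least 10.6-fold lower.

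Among genes highest in oligodendrocytes, 76 were called in the low (21 higher, 55 lower) and 679 in the medium bin (224 and 455) of ATV-TfR, and 121 (18 and 103) and 81 (41 and 40) in ATV-CD98hc, of 2620 such genes. These are 2.90%, 25.9%, 4.62% and 3.09% of them, against 9.25%, 20.1%, 7.45% and 3.41% of all tested genes. The set was chosen by levels in the negative bins, which the comparisons share. The transcript 7630403G23Rik was at 61.7 and 70.8 CPM in the negative, 18.1 and 23.2 in the low and 1.90 and 7.99 in the medium bin of ATV-TfR (-1.76 and -3.86), and Gm42756 fell with it (-1.48 and -3.67). In ATV-CD98hc, Ephb2, an ephrin receptor, fell by 2.07 and Hcn2, a pacemaker channel, fell by 1.77 in the low bin, and Scd3, a desaturase, fell by 2.44 and Pter fell by 1.88 in the medium bin. Kctd16 fell by 1.49 in the low bin of ATV-TfR and by 1.83 in the medium bin of ATV-CD98hc. Rises among these genes are given next.

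In the medium bin of ATV-TfR a few barcodes carried most of the neuron-like RNA. All 7 tested neuron genes rose there, where 12.4% of all genes rose. Their summed level was 835 and 296 CPM against 37.7 to 43.7 in the negative bin. In these libraries 7 and 3 barcodes with exactly 4 rule genes, at a median of 21326 and 17925 UMIs, held 95.7% and 86.1% of these UMIs. The other members had 39.7 and 43.7 CPM. It was not so in every library: in medium replicate 2 of ATV-CD98hc the barcodes with 4 rule genes held 0.855% of these UMIs, and the other members had 300.1 CPM. With at least 5 rule genes required, Snap25 was lower in the medium bin than in the negative one (log2 change -1.99) and 2412 genes were called in this comparison.

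Gpr17 and genes with a like pattern were among the largest rises in genes that are highest in oligodendrocytes. Gpr17 was at 1.17 and 1.39 CPM in the negative members of ATV-TfR, 8.66 and 11.6 in the low and 52.2 and 52.5 in the medium bin. In ATV-CD98hc it was at 0.88 and 1.39, then 21.5 and 12.0, then 16.3 and 24.5, and the control IgG negative library had 2.26. Every library of a positive bin lay above every negative library, and in ATV-TfR the medium bin lay above the low one. The largest changes were listed only for genes whose groups did not overlap, so the first of these is description. The log2 changes were 2.90 (SE 0.40, adjusted p = 5.0e-05, edgeR) and 5.29 (0.37, 3.8e-08) in the low and medium ATV-TfR bins, and 3.92 (0.46, 4.8e-05) and 4.18 (0.55, 9.1e-05) in those of ATV-CD98hc.

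A few further genes, named by the size of their change among called genes whose groups did not overlap, moved in the same way. The transcript 9630013A20Rik was at 2.76 and 1.81 CPM in the negative bin of ATV-TfR, 24.5 and 15.5 in the low and 284 and 322 in the medium bin (log2 change 6.93, SE 0.38, against negative). In ATV-CD98hc it was at 2.89 and 2.09, then 23.6 and 43.4, then 27.1 and 110. The medium libraries of ATV-CD98hc differed from each other by more than the low ones did, and there its log2 change of 4.53 lost its call at 2.93 when at least 5 rule genes were required.

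Tac1, the gene of substance P, had 1.42 and 1.11 CPM in the negative, 13.9 and 7.72 in the low and 53.2 and 65.1 in the medium bin of ATV-TfR, and 1.51 and 1.74, 33.7 and 26.8, and 19.9 and 31.8 in ATV-CD98hc. Ctps, which makes CTP for the synthesis of nucleic acids and phospholipids, had 24.7 and 20.3, 58.7 and 55.4, and 427 and 396 CPM in ATV-TfR, and 21.6 and 29.3, 155 and 103, and 114 and 196 in ATV-CD98hc. Sema4f, a semaphorin, had 0.42 and 0.28 CPM in the negative bin of ATV-TfR and 40.8 and 41.1 in the medium bin, and in ATV-CD98hc 0.50 and 0, then 15.0 and 25.9, then 28.9 and 12.2. Rab7b, a GTPase of late endosomes, rose by 3.17 (SE 0.39) in the medium bin of ATV-CD98hc, from 3.77 and 4.53 CPM to 32.6 and 44.0. For Tac1, Ctps and Sema4f the positive libraries lay above the negative ones in both treatments. That is description, since genes were named for groups that did not overlap. Microglia, astrocytes and endothelial cells had at most 1.44 CPM on average of Gpr17, 9630013A20Rik, Tac1 or Sema4f in any group of the negative, low and medium bins. Prom1, with a log2 change of 6.88 (SE 0.32) in the medium bin of ATV-TfR and 6.19 (0.39) in the low bin of ATV-CD98hc, is high in endothelial cells too, which held 264 and 225 CPM of it in those bins.

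**Figure D2:**
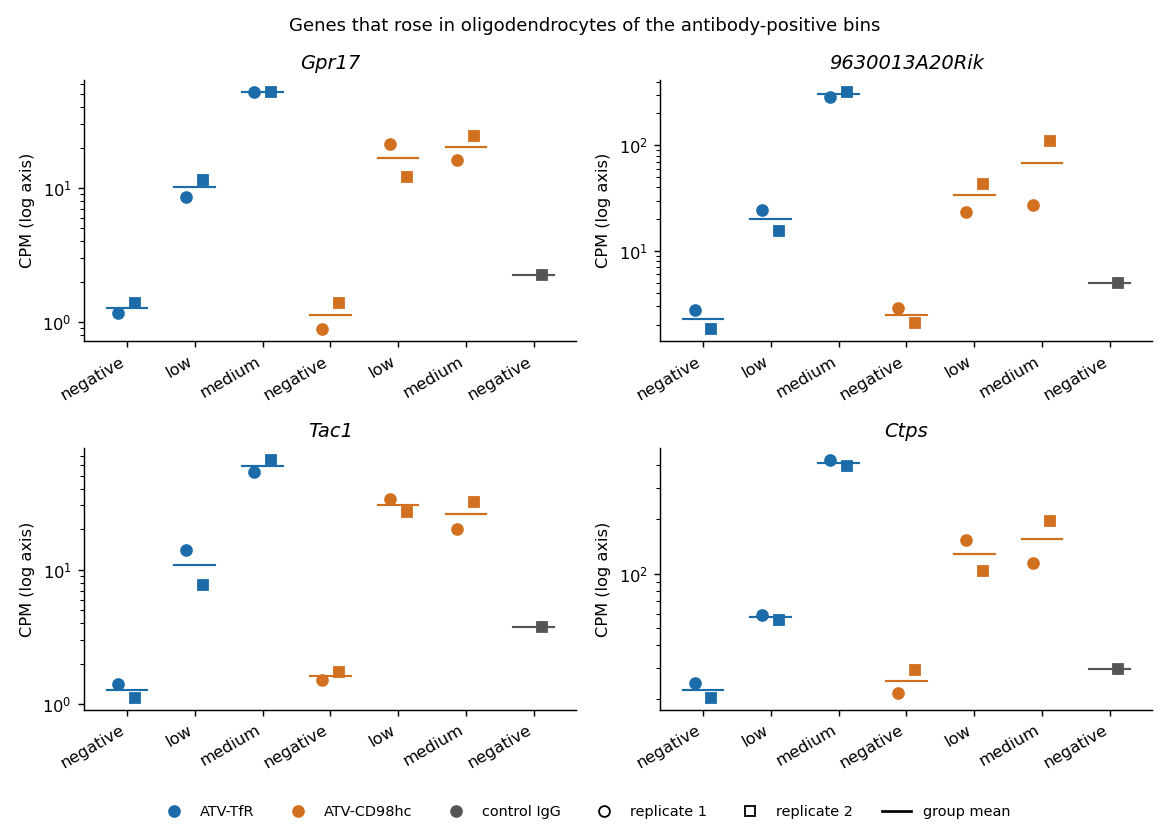
Level of Gpr17, 9630013A20Rik, Tac1 and Ctps in oligodendrocytes (CPM, log axis) by bin and treatment; points are libraries. The negative libraries sit lowest in every panel, and the medium libraries of ATV-TfR highest.

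Shares of cells with these transcripts are a description, since the genes were picked for their rise. Members with a UMI of Gpr17, 9630013A20Rik or Tac1, a set chosen after these levels were seen, made up 2.50% and 2.00% of the negative, 6.76% and 5.70% of the low and 33.3% (35 cells) and 36.5% (31 cells) of the medium bin of ATV-TfR. The share was 2.52% and 2.33%, 7.32% and 9.68%, and 13.6% (8 cells) and 18.2% (10 cells) in ATV-CD98hc, and 3.34% in the control IgG negative bin. Astrocytes, which should lack these transcripts, gave 0.0518% to 0.970% in the negative, low and medium bins of both ATVs. Members of the medium bin were deeper than the others, so the expected share was also computed with every cell thinned to 800 UMIs, the depth each member has at least. It was then 0.406% and 0.340% in the negative, 1.25% and 1.21% in the low and 8.48% and 11.4% in the medium bin of ATV-TfR, and 0.370% and 0.326%, 2.37% and 3.23%, and 2.02% and 5.87% in ATV-CD98hc. The order of the bins was kept in ATV-TfR, and in ATV-CD98hc the low and medium bins overlapped. The list of 8 newly formed genes gave a smaller difference. Members with a UMI of at least 2 of its genes after thinning to 800 UMIs made up 4.64% and 5.30% of the negative, 7.46% and 7.05% of the low and 9.52% and 10.6% of the medium bin of ATV-TfR. The same share was 6.70% and 3.82%, 6.50% and 7.53%, and 3.39% and 5.45% in ATV-CD98hc, where the bins overlapped and the medium bin was not higher. This list includes Itpr2 and Fyn, of which astrocytes held more than members in the negative bins. The part of that RNA in these shares was not tested.

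In the medium bin of ATV-TfR the members with such a UMI had a median of 14914 and 12829 UMIs, against 6527 and 6915 in the members without. Their levels differed in more than the genes that selected them, which is given as description. Nfasc, which anchors myelin loops beside the node, was at 2531 and 2739 CPM with and 1112 and 1225 without, and Hmgcs1, an enzyme of cholesterol synthesis, at 801 and 691 against 293 and 402. Il33, a cytokine of mature oligodendrocytes, was at 50.7 and 64.9 with and 208 and 265 without, and Trf at 953 and 988 against 1554 and 1942. Members of the negative bin without such a UMI had 873 and 774 CPM of Il33 and 4053 and 4175 of Trf, so in the medium bin both genes were low in the remaining members too. The neuron-like barcodes lie among the members without such a UMI: Snap25 was at 328 and 106 CPM in these and at 1.95 and 2.32 in the members with one. Of the latter 1 and 0 were marked as doublets, and of those without 7 and 0. No member of replicate 2 was marked, so its count says nothing about either group. With at least 5 rule genes required, the log2 changes of Trf and Il33 over all members of the medium bin were -1.52 and -2.41.

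**Figure D3:**
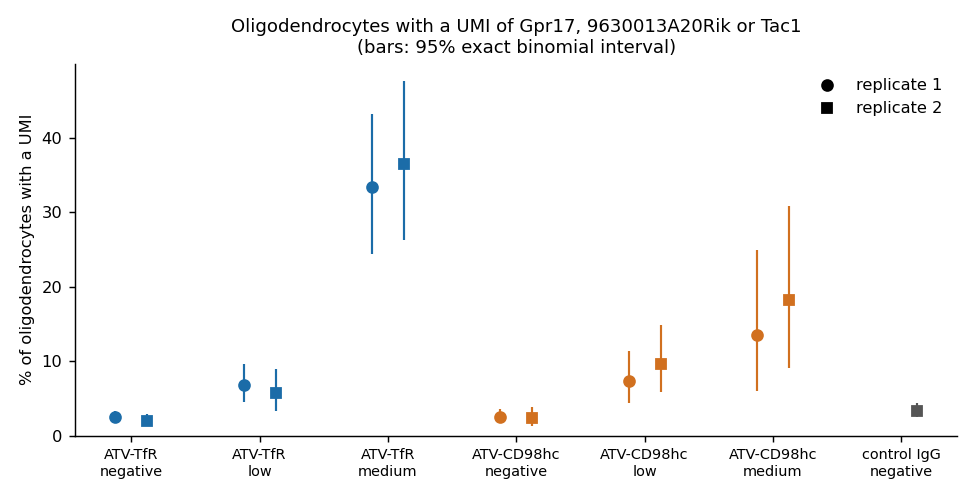
Percent of oligodendrocytes with a UMI of Gpr17, 9630013A20Rik or Tac1 by bin and treatment; points are libraries with exact 95% binomial intervals. Both medium libraries of ATV-TfR lie at about 33.3% to 36.5%, against 2.00% to 3.34% in the negative libraries.

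The estimate of AF647-positive cells in ATV-TfR, made as above, was 3.62% and 2.35% for the members with at least 2 genes of the newly formed list after thinning (131 and 99 cells) and 2.14% and 1.56% for those with fewer. Members that met another rule are counted here too, and the part of astrocyte RNA in these estimates was not tested. Precursors, found by a rule of their own, gave 74.1% and 32.0% from 74 and 29 cells. They were counted 2 and 3 times in the negative, 50 and 21 times in the low and 22 and 5 times in the medium bin of ATV-TfR, and 2 and 0, 23 and 43, and 16 and 11 times in ATV-CD98hc. So few negative precursors leave that estimate wide, and its counting error is not carried into the percent.

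Of 8 genes of the newly formed stage 4 rose in the low and 5 in the medium bin of ATV-TfR, and 3 and 1 in those of ATV-CD98hc, with none lower, where 7.22%, 12.4%, 6.36% and 2.85% of all genes rose. The median log2 change was 0.93, 1.35, 0.94 and 0.78, against -0.04, -0.01, -0.01 and -0.05 over all tested genes, and it is the same with Neu4, absent from the negative bins, at its bound. Rras2, a small GTPase, rose by 2.77 (SE 0.43) in the medium bin of ATV-TfR, from 5.69 and 5.57 CPM to 38.9 and 41.1. Fyn, a kinase needed for the start of myelination, rose there by 1.37 (0.17), or 0.85 with at least 5 rule genes. Itpr2, a calcium channel, rose by 0.92 and 1.33 in ATV-TfR and by 1.23 in the low bin of ATV-CD98hc, although the change of 0.92 lost its call without either pool (1.27 and 0.59). Of these, Itpr2 and Fyn are no markers of members alone: in the negative bins astrocytes held 269 and 187 CPM of them against 39.4 and 94.3 in members, microglia held 363 CPM of Itpr2, and endothelial cells held 47.3 CPM of Rras2 against 4.97. The part of such RNA in their rises was not tested. Enpp6, a choline phosphodiesterase of this stage, rose only by 1.13 (0.15) in the low bin of ATV-TfR, from 66.1 and 65.0 to 154 and 148 CPM, and had 70.3 and 87.9 CPM in the medium bin. Bcas1 passed the test in none of the 4 comparisons.

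Precursor genes rose in part: 4 of 8 in the low bin of ATV-TfR, 3 in the medium (with 2 lower), and 3 and 1 in ATV-CD98hc (all genes 7.22%, 12.4%, 6.36% and 2.85% higher). In the negative bins astrocytes held more than members of Tnr (14.2 against 3.46 CPM), Vcan (20.7 and 2.17), Lhfpl3 (33.6 and 10.1) and Cacng4 (34.8 and 2.73), and the astrocyte list rose in the first 3 of these comparisons. The part of that RNA was not tested. Tnr, a matrix glycoprotein, had log2 changes of 3.74, 5.23, 3.99 and 3.90, but the last turned to -0.10 with at least 5 rule genes and to -5.59 without ATV-CD98hc replicate 2, and the change in the medium bin of ATV-TfR lost its call. Pdgfra, the receptor that defines precursors, had no UMI in the medium members of ATV-TfR, at least 2.53-fold lower than in the negative bin, and rose by 2.69 in the low bin of ATV-CD98hc. Of 9 transcription factors of the lineage, Tcf7l2, which acts at the switch to myelination, rose by 0.72 and 0.83 in ATV-TfR and by 1.04 in the low bin of ATV-CD98hc. Those 3 calls were lost when members that also met another rule were left out (0.41, 0.64 and 0.66). Sox10 fell by 0.66 and Nkx2-2 fell by 1.01 in the medium bin of ATV-TfR, calls that were lost without either pool (-0.48 and -0.85, and -0.93 and -1.07).

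Of 15 genes of cholesterol synthesis and uptake, 7 rose in the low and 11 in the medium bin of ATV-TfR, and 6 and 3 in those of ATV-CD98hc, with none lower. Thus most of them passed in the medium bin of ATV-TfR alone, and over all genes 7.22%, 12.4%, 6.36% and 2.85% rose. The median log2 change was 0.49, 0.89, 0.54 and 0.34. Hmgcs1, the enzyme that feeds the pathway, was at 183 and 157 CPM in the negative bin of ATV-TfR, 311 and 281 in the low and 540 and 545 in the medium bin, and in ATV-CD98hc at 182 and 173, 317 and 285, and 385 and 335. Every step up in fluorescence was higher than the last in both treatments, with log2 changes of 0.73, 1.62, 0.67 and 0.97 (SE 0.16 to 0.17).

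Cyp51, which removes a methyl group from lanosterol, followed with 0.56, 1.36, 0.80 and 0.90. The calls of Hmgcs1 and Cyp51 in the low bin of ATV-TfR were lost without either of its pools (Hmgcs1 0.79 and 0.70, Cyp51 0.50 and 0.63), with the values little changed. In the negative bins astrocytes held 204 CPM of Hmgcs1, against 178 in oligodendrocytes, and the astrocyte list rose in 3 of the 4 comparisons.

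**Figure D4:**
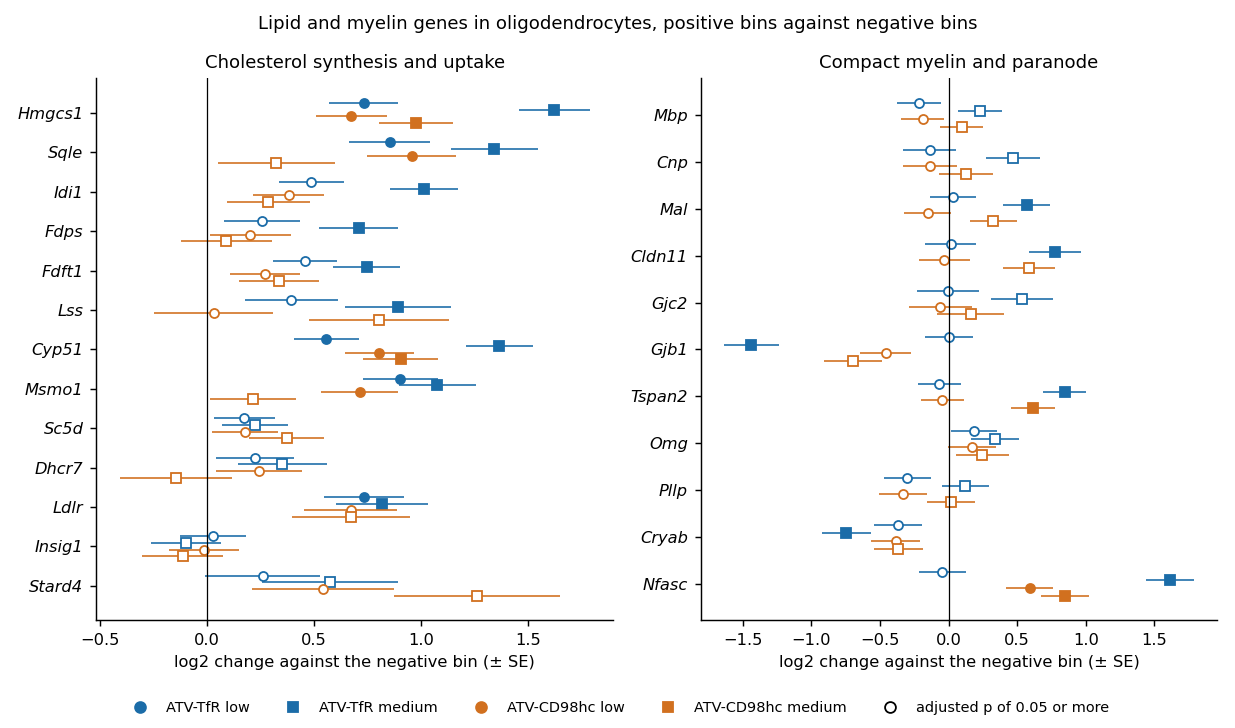
Log2 change against the negative bin (edgeR, error bars are SE) of genes of the cholesterol synthesis and compact myelin lists in the low and medium bins of both ATVs. The cholesterol genes lie mostly above 0, and the medium bin of ATV-TfR is the highest for most of them, Hmgcs1 and Cyp51 included.

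Myelin genes outside the rule moved by moderate amounts. None of 12 passed in the low bin of ATV-TfR, and 5 rose and 2 fell in its medium bin, where the median was 0.50 and 12.4% of all genes rose and 7.78% fell. In ATV-CD98hc 1 rose in the low and 2 rose in the medium bin (6.36% and 2.85% of all genes). The low and medium bins were not tested against each other. Nfasc was at 593 and 597 CPM in the negative, 675 and 534 in the low and 1803 and 1970 in the medium bin of ATV-TfR, and at 666 and 566, 1005 and 970, and 1042 and 1260 in ATV-CD98hc. Its log2 change was 1.61 (SE 0.17) in the medium bin of ATV-TfR, and 0.59 and 0.85 in ATV-CD98hc. The call of 0.59 was lost without any 1 of the ATV pools (0.49 to 0.62).

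Tspan2, a tetraspanin of early myelin, rose by 0.85 (SE 0.16) and 0.62 (0.16) in the 2 medium bins. Mal, a proteolipid of myelin membrane, rose by 0.57 and Cldn11, which seals the myelin sheath, by 0.78 in the medium bin of ATV-TfR. Both calls were lost without either of its pools, at 0.62 and 0.52 for Mal and 0.92 and 0.60 for Cldn11. Gjb1, a gap junction protein of mature oligodendrocytes, fell by 1.44 (0.20) and Cryab, a small heat shock protein, fell by 0.75 (0.18). Mbp did not pass in any of the 4 comparisons (-0.22, 0.23, -0.19 and 0.09). Of 10 genes of glycolipid and fatty acid synthesis, 3 fell in the medium bin of ATV-TfR, where 1 rose, and 3 fell in the low bin of ATV-CD98hc. Of all genes 7.78% fell and 12.4% rose in the first and 1.09% fell in the second. The 3 genes were Aspa, which releases acetate from N-acetylaspartate (-0.92 and -0.55), and the desaturases Scd1 (-1.37 and -0.76) and Scd2 (-0.52 and -0.61).

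Most listed genes of a mature oligodendrocyte state fell in the medium bin of ATV-TfR, while myelin genes such as Nfasc rose in that bin. Of 7 genes that mark the state rich in Ptgds and Il33, 6 fell there, with a median log2 change of -1.44, where 7.78% of all genes fell. In the low bin of ATV-TfR 1 rose and 1 fell, and in ATV-CD98hc 2 fell in the low and 1 in the medium bin. Of all genes 7.22% rose and 2.02% fell in the first of these, and 1.09% and 0.563% fell in the others. Il33 was at 872 and 771 CPM in the negative, 389 and 428 in the low and 131 and 167 in the medium bin of ATV-TfR. Its levels in ATV-CD98hc were 750 and 687, 451 and 538, and 553 and 433. The positive bins lay below the negative ones in both treatments, and the medium bin of ATV-TfR lay below all others, with log2 changes of -1.08 (SE 0.18) and -2.52 (0.20) in ATV-TfR and -0.63 (0.18) in the low bin of ATV-CD98hc. The value of -0.59 in the medium bin of ATV-CD98hc did not pass (adjusted p = 0.12).

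Ptgds, which makes prostaglandin D2, had 21886 and 22160 CPM in the negative and 8038 and 8723 in the medium bin of ATV-TfR (log2 change -1.44, SE 0.21). It fell by 0.95 (low) and by 0.81 (medium) in ATV-CD98hc, where the negative libraries differed from each other (11802 and 19262) and the second value was -0.29 without replicate 2 and -1.29 without replicate 1. Car2, a carbonic anhydrase, fell by 1.78 (0.20) and Apod, a lipid carrier, fell by 1.73 (0.22) in the medium bin of ATV-TfR. S100b, the member that rose, increased by 1.38 (0.23) in the low bin of ATV-TfR, beside the rise of the astrocyte list.

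The other mature state, marked by Klk6 and Hopx, had 3 of its 4 genes higher in the low bin of ATV-TfR (median 1.40; 7.22% of all genes rose) and 2 lower in its medium bin (7.78% of all genes fell). Klk6, a secreted protease that microglia, astrocytes and endothelial cells held at 0, 0.087 and 0.093 CPM in the negative bins, was at 21.9 and 39.4 CPM in the negative, 122 and 151 in the low and 14.2 and 3.42 in the medium bin of ATV-TfR. The values in ATV-CD98hc were 41.4 and 66.9, 42.3 and 47.1, and 5.43 and 12.2. The low bin of ATV-TfR was the high point and both medium bins were low, with log2 changes of 2.10 (SE 0.27), -1.76 (0.48), -0.33 (0.32, not called) and -2.70 (0.60). The change of -1.76 was -3.53 without replicate 1 and -0.70 without replicate 2, and -2.70 lost its call without either ATV-CD98hc pool (-2.59 and -2.92). Nkx2-9, a homeobox gene, also rose in the low bin of ATV-TfR, by 2.32 (0.36), and Hopx, a homeodomain protein that astrocytes also express, by 1.98 (0.19).

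**Figure D5:**
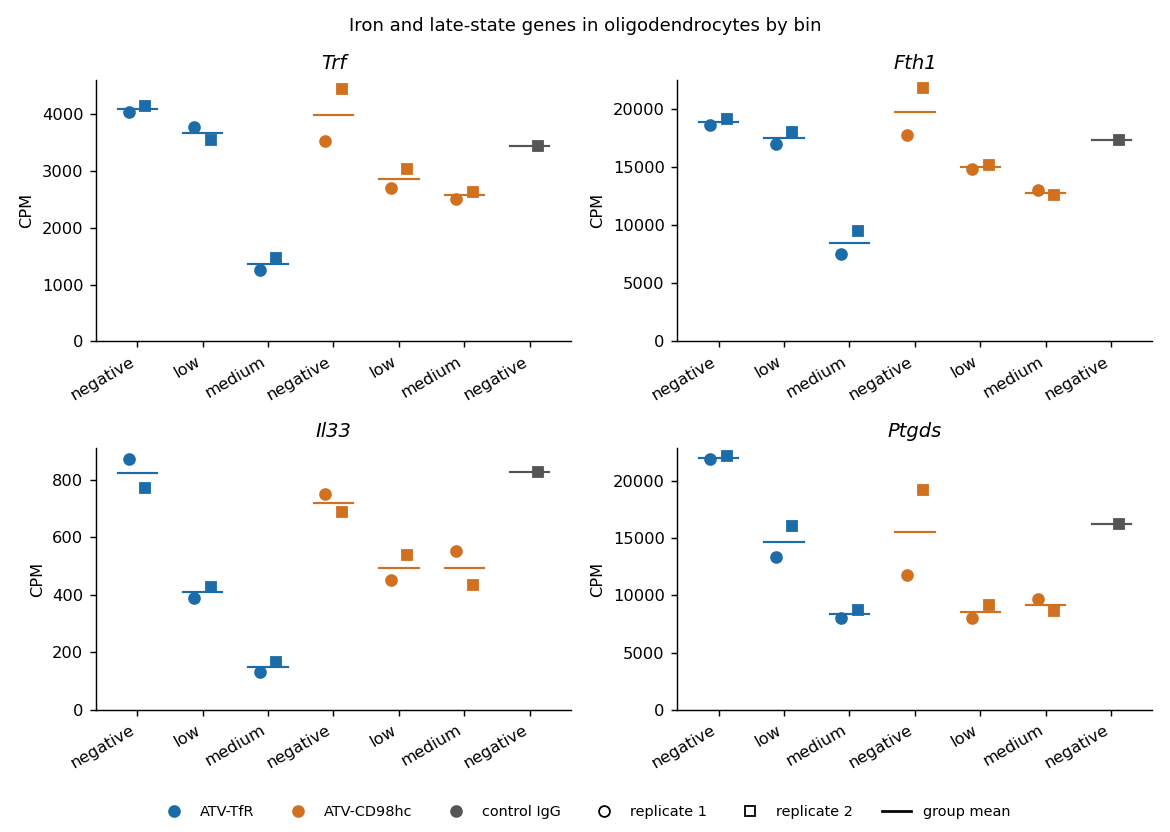
Level of Trf, Fth1, Il33 and Ptgds in oligodendrocytes (CPM) by bin and treatment. Points are libraries. The medium libraries of ATV-TfR lie lowest for Trf, Fth1 and Il33, with Trf at 1261 and 1473 CPM against 4039 and 4147 in the negative bin.

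Iron genes were fixed as a list because ATV-TfR binds the iron uptake receptor. Of 14 genes 1 rose in the low bin of ATV-TfR, 1 rose and 3 fell in its medium bin, none was called in the low bin of ATV-CD98hc and 2 rose and 2 fell in its medium bin. Of all genes 9.25%, 20.1%, 7.45% and 3.41% were called, so the counts in ATV-TfR and the low bin of ATV-CD98hc are near or under that background. Tfrc had 15.5 and 18.9 CPM in the negative, 29.0 and 33.5 in the low and 33.2 and 35.4 in the medium bin of ATV-TfR, and 38.1 and 35.5, 50.2 and 51.7, and 83.2 and 58.7 in ATV-CD98hc. Its positive libraries lay above the negative ones in both treatments, with log2 changes of 0.80 (SE 0.20) and 0.95 (0.23) in ATV-TfR, 0.37 (0.20, not called) and 0.92 (0.23) in ATV-CD98hc. All 3 calls were lost without either pool of their treatment (0.77 and 0.84, 0.88 and 1.02, and 0.58 and 1.13), and endothelial cells, whose markers rose in the same members, are rich in Tfrc.

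Trf was at 4039 and 4147 CPM in the negative, 3776 and 3550 in the low and 1261 and 1473 in the medium bin of ATV-TfR, a fall by 1.63 (SE 0.18, adjusted p = 2.9e-06, edgeR) in the last. In ATV-CD98hc it was at 3521 and 4443, 2699 and 3026, and 2505 and 2635, with a log2 change of -0.68 (0.17, adjusted p = 0.033) in the medium bin. Fth1, the ferritin heavy chain, was at 18569 and 19096 CPM in the negative and 7476 and 9445 in the medium bin of ATV-TfR (-1.20, SE 0.18), and at 17710 and 21772 and 12977 and 12543 in ATV-CD98hc (-0.68, 0.17). The medium bin of ATV-CD98hc lay between the negative bins and the medium bin of ATV-TfR for both genes, and its calls were lost without either ATV-CD98hc pool (Trf -0.89 and -0.49, Fth1 -0.94 and -0.45). Ftl1, the ferritin light chain, did not pass in any comparison (-0.38, -0.43, -0.52 and -0.41). Cp, a copper enzyme that oxidises iron, fell by 2.97 (0.75) in the medium bin of ATV-TfR, a call lost with doublets removed (-1.75). Slc40a1, the iron exporter ferroportin, rose by 4.63 (0.66) in the medium bin of ATV-CD98hc, from 1.26 and 0.70 to 41.6 and 12.2 CPM, beside the rise of the endothelial list. The other 8 iron genes, among them the importer Slc11a2 and the reductases Steap2 and Steap3, were called in none of the 4 comparisons, with log2 changes from -1.36 to 1.49, both of Steap3.

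Of 7 genes of the CD98 heavy and light chains 3 rose and 1 fell in the low bin of ATV-TfR, 2 rose and 1 fell in its medium bin, 4 rose in the low bin of ATV-CD98hc and 1 in its medium bin, against 9.25%, 20.1%, 7.45% and 3.41% of all genes called. Slc3a2 was at 77.6 and 89.6 CPM in the negative, 107 and 119 in the low and 104 and 106 in the medium bin of ATV-TfR, which did not pass (0.37 and 0.28). In ATV-CD98hc it was at 26.5 and 38.3, 63.8 and 51.7, and 38.0 and 44.0. The low libraries were the highest there, with a log2 change of 0.80 (SE 0.21) that lost its call, at 0.28, without ATV-CD98hc replicate 1, and the medium value of 0.32 did not pass.

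Slc7a5 was at 1.51 and 2.44 CPM in the negative, 20.1 and 23.1 in the low and 72.3 and 46.5 in the medium bin of ATV-CD98hc, and at 1.59 and 1.39, 4.52 and 7.72, and 5.70 and 3.42 in ATV-TfR. The log2 changes were 3.47 (SE 0.42) and 5.00 (0.42) in ATV-CD98hc, and 1.92 (0.43) in the low bin of ATV-TfR. Endothelial cells held 436 CPM of Slc7a5 in the negative bins, against 5.93 in oligodendrocytes. Slc7a10 and Slc7a11, light chains that astrocytes express, rose by 2.17 and 1.89, 1.90 and 1.43, and 1.83 and 1.77 in the 3 comparisons in which the astrocyte list rose. In the medium bin of ATV-CD98hc, where that list did not rise, neither passed (-1.28 and -0.92). The part of endothelial or astrocyte RNA in the changes of these light chains was not tested. The falls were those of Slc7a8 in the low bin (-2.53) and of Slc7a7, which had no UMI in the medium bin of ATV-TfR and was at least 2.69-fold lower there, and Slc7a6 passed in none (-0.18 to 0.23).

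Of 6 genes that bind antibody 1 rose and 4 fell in the low bin of ATV-TfR, 2 fell in its medium bin, and 1 rose in each bin of ATV-CD98hc, against the same shares of all genes. Fcgrt, the chain of the neonatal Fc receptor FcRn, was at 7.45 and 5.43 CPM in the negative, 13.5 and 15.9 in the low and 8.55 and 11.4 in the medium bin of ATV-TfR. Members of ATV-CD98hc had 4.53 and 8.71, 18.6 and 22.2, and 25.3 and 56.3. It rose by 1.65 (SE 0.39) and 2.64 (0.42) in ATV-CD98hc and by 1.10 (0.33) in the low bin of ATV-TfR, the last lost without either pool (1.49 and 0.79). Endothelial cells held 340 CPM of Fcgrt in the negative bins against 7.90 in members, and the endothelial list was highest in the medium bin of ATV-CD98hc, where Fcgrt was highest too. The part of that RNA was not tested. The Fc receptor genes of microglia Fcgr3 and Fcer1g fell by 3.01 and 2.43 in the low and by 2.32 and 1.96 in the medium bin of ATV-TfR, together with the microglia list, and Fcgr1 and Fcgr2b fell in the low bin (-2.70 and -4.00, from 130 and 71 UMIs to 5 and 1). Fcer1g turned to 0.25 in the medium bin when members that met another rule were left out. Trim21, which binds antibody inside cells, passed in none (-0.39, -0.36, 0.58 and 1.73).

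Of 8 genes of the disease-associated state 4 rose in the low and 3 in the medium bin of ATV-CD98hc, with medians of 1.36 and 1.32, where 6.36% and 2.85% of all genes rose. In ATV-TfR 0 and 1 rose (7.22% and 12.4% of all genes), and the difference between the treatments was not tested. The MHC class I heavy chain gene H2-D1 was at 24.4 and 31.0 CPM in the negative, 150 and 106 in the low and 233 and 122 in the medium bin of ATV-CD98hc, and at 44.1 and 40.1, 22.9 and 40.3, and 36.1 and 26.3 in ATV-TfR. Its log2 changes were 2.16 (SE 0.28) and 2.70 (0.30) in ATV-CD98hc. B2m, the light chain of MHC class I, changed by 2.22 (0.38) and 2.74 (0.43), where the medium libraries held 154 and 29.4 CPM and the second value was 1.13 without replicate 1. C4b, a complement gene, rose by 1.38 in the low bin, but by 0.50, not called, without replicate 1. Endothelial cells are rich in H2-D1 and B2m, and their list rose in both bins, so the part of that RNA in these changes was not tested.

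The last lists follow. Of 9 tested immediate early genes 0 rose in the low and 4 in the medium bin of ATV-TfR, and 1 in each of ATV-CD98hc, where 7.22%, 12.4%, 6.36% and 2.85% of all genes rose. Fos, at 43.7 and 7.99 CPM in the medium bin of ATV-TfR, had a log2 change of 3.15, and of 0.77 without replicate 1. Of 10 tested genes of the amino acid and integrated stress response, 2 rose and 3 fell in the medium bin of ATV-TfR and none was called in the other comparisons. In that medium bin 20.1% of all genes were called. For lactate and glucose support, Pfkm, a glycolytic kinase that rose with the astrocyte list, changed by 1.64, 1.40 and 1.72, and Ldhb by 1.18 in the low bin of ATV-TfR and by -1.08 in the medium bin of ATV-CD98hc.

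Negative-bin oligodendrocytes were compared between treatments, which also differ in genotype. Between ATV-TfR and ATV-CD98hc 59 genes (0.437%) were called. Of these, 41 (0.304%) had more and 18 (0.133%) less RNA in ATV-TfR. The number was 16 with ATV-TfR replicate 1 left out and 0 with ATV-CD98hc replicate 1 left out, 5 with doublets removed and 13 without members that met another rule. Genes typical of other cells had larger differences than the target genes below. All 4 tested erythroid genes were lower in ATV-TfR (median log2 difference -8.01; 1.17 to 1.67 CPM in sum against 44.6 to 469). Of border macrophage genes 3 of 6 were higher (median 3.72; 59.5 to 189 against 3.02 to 8.36 CPM), and of microglia genes 3 of 10 (median 1.80; 537 to 941 against 203 to 281 CPM). The genes of both targets were also called: Tfrc was at 15.5 and 18.9 CPM in ATV-TfR, 38.1 and 35.5 in ATV-CD98hc and 42.2 in control IgG, and Slc3a2 at 77.6 and 89.6, 26.5 and 38.3, and 86.4. Each target gene was lowest in the mice that carry its knock-in, with log2 differences of -1.11 (SE 0.18) for Tfrc and 1.41 (0.18) for Slc3a2 between ATV-TfR and ATV-CD98hc. Leaving out ATV-CD98hc replicate 1 ended both calls (-1.09 and 1.10), and leaving out ATV-TfR replicate 1 ended that of Tfrc (-0.93). How reads from the human part of a knock-in allele were counted is not given in the sources used here, and its share in these levels was not tested.

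Control IgG has 1 negative library, which is assumed to vary like the libraries of the other groups in the tests against it, so these calls cannot tell the treatment apart from that library. Against that library 183 genes (1.36%) were called in ATV-TfR, 5 of them higher (0.0371%) and 178 lower (1.32%), and 67 (0.497%) in ATV-CD98hc, 4 of them higher (0.0297%) and 63 lower (0.467%). The first count was 60 or 50 from a single ATV-TfR pool, and the second 13 or 42 from a single ATV-CD98hc pool, where 1 library stands against 1. Endothelial genes were low in members of both ATVs, at a summed 30.6 to 48.8 CPM against 294 in that library. The sorted cells differed too. Endothelial barcodes were 25.5% of the control IgG negative library, 1.58% and 1.41% of those of ATV-TfR and 1.39% and 1.82% of those of ATV-CD98hc. The part of their RNA in these calls was not tested. In the control IgG negative library, 7 barcodes with exactly 4 rule genes held 58.5% of the UMIs of the neuron list. Such barcodes held 0.667% and 20.4% in the negative bin of ATV-TfR and 0.383% and 4.84% in that of ATV-CD98hc. Their part in these calls was not tested either. With doublets removed, 16 and 9 genes were called. Among the 2620 genes highest in oligodendrocytes, 2, 5 and 2 were called in the 3 comparisons of negative bins.

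The change from the negative bin was set against the same change in microglia, in a joint fit of 14160 genes. It differed for 513 genes (3.62%) in the low and 919 (6.49%) in the medium bin of ATV-TfR, and for 454 (3.21%) and 115 (0.812%) in those of ATV-CD98hc, the last 198 with the pool as a block. With 1 pool of the treatment left out, 3 and 15, 25 and 105, 0 and 11, and 0 and 16 were called. Higher and lower calls numbered 111 (0.784%) and 402 (2.84%), 238 (1.68%) and 681 (4.81%), 159 (1.12%) and 295 (2.08%), and 77 (0.544%) and 38 (0.268%), and with RLE in place of TMM scaling 150 and 315, 344 and 496, 189 and 238, and 97 and 19. The balance turned under other settings. In ATV-TfR, members with at least 4 times the other markers gave 276 and 230 (low) and 583 and 357 (medium), and the medium bin gave 453 and 369 with at least 10 CPM, 544 and 420 with at least 50 cells per library and 631 and 427 with no filter. In ATV-CD98hc, doublet removal gave 256 and 147 (low), and leaving out members of another rule 62 and 95 (medium). No direction of these counts is therefore taken as a result. The median difference of the 2000 highest genes moved from -0.25 to -0.13, -0.36 to -0.19, -0.28 to -0.19 and -0.15 to 0.02 between these scalings. The change of Trf was lower in oligodendrocytes than in microglia in the medium bin of ATV-TfR (difference -1.48, adjusted p = 0.015, edgeR). So were those of Fth1 there (-2.45) and of Il33 (-1.96 in the low and -3.38 in the medium bin). For Fth1 and Il33 the difference exceeded the fall in oligodendrocytes given above. It thus also holds a shift in microglia or in the joint scaling. Microglia of the negative bins held 16.6 CPM of Il33. The change was higher in oligodendrocytes for Ctps in the low bin of ATV-CD98hc (2.32, adjusted p = 0.0038, edgeR). It was also higher for Slc7a5 in the low bin of ATV-TfR (1.75) and both bins of ATV-CD98hc (3.14 and 3.09). None of these 8 differences changed sign under an alternative, but each lost its call with 1 pool of its treatment left out. Trf was at -1.34 and -1.28, Fth1 at -2.29 and -2.29, Il33 in the low bin at -1.56 and -2.12 and Slc7a5 in the low bin at 2.19 and 1.50 without ATV-TfR replicate 1 or 2. Il33 in the medium bin was at -2.16 without replicate 1. Without ATV-CD98hc replicate 1, Ctps was at 1.31 and Slc7a5 at 2.84 and 2.42. The call of Trf was also lost with at least 5 rule genes (-1.09), with at least 10 CPM (-1.16), with no filter (-1.06) and without either ATV-CD98hc pool (-1.12 and -1.13), and both calls of Il33 with at least 4 times the other markers (-1.28 and -2.26). In the low bin, the call of Il33 was lost with doublets removed (-1.67) and that of Slc7a5 in ATV-TfR without members of another rule (1.94).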

How the data were processed

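The deposited matrix holds UMI counts per gene and barcode, whole numbers that the authors did not normalise. Per the submitters' processing notes they come from Cell Ranger 7.1.0, with mm10 and GRCm38 named as builds; how cells were called is not stated there. Deposited beside it, as files of unit other, are the gene names, the barcodes and the table that ties barcodes to libraries. The members and gene lists were chosen with earlier results of these data known.

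Of 265025 barcodes, 249715 passed the filters. Doublets were kept in the main analysis and removed with Scrublet (scanpy 1.11.5) as an alternative; in 8 libraries where its threshold marked under 0.5% or over 25% of barcodes, those above percentile 94 were removed. UMIs of members were summed per library with at least 20 members, which left 13 libraries, and tested with edgeR 4.0.16 (limma 3.58.1, R 4.3.3; quasi-likelihood, TMM, its filter on low counts, 1 mean per group). DESeq2 1.42.0 was an alternative. Cell numbers of 10 classes were tested with edgeR with the passing barcodes as offset. Trends over bins were tested by exact permutation, with 0.5 cells added. Scripts were tested on simulated data. Intervals and floors (95%, exact binomial; 3 counts) cover counting error only.

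Named genes were those of the iron, CD98 and antibody binding lists, the 5 called rises and 5 called falls of largest size per comparison (at least 20 CPM, groups not overlapping), the same among genes highest in negative-bin oligodendrocytes, and 2 per other list. Others were named after their values were seen. Some genes that count in these lists are not reported here by name. Bins of a pool share its animals, per the labels. Deviations from the bin means over 2000 genes correlated between bins at 0.51 to 0.54 in ATV-TfR, and at -0.08, 0.54 and -0.07 in ATV-CD98hc. Between the negative bins of ATV-TfR and ATV-CD98hc, matched by replicate number, the correlation was 0.45, although these share no animals. What it reflects was not tested. No label names replicates beyond the 2 pools of mice per treatment, so p-values measure the spread between these pools only.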

Additional observations from a re-analysis of the deposited data

Results flagged for a closer look

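The number of oligodendrocytes per microglia barcode moved in opposite directions from the negative to the medium bin in the 2 ATV treatments. The mean log2 change over the 2 pools was 0.997 in ATV-TfR (1.17 and 0.82 in replicates 1 and 2) and -2.64 in ATV-CD98hc (-2.85 and -2.44). Every pool of one treatment moved one way and every pool of the other the opposite way, which was the condition for the flag. The low and high bins did not meet it. There the pools of ATV-TfR differed in sign (0.41 and -0.20, and 0.28 and -1.58), and those of ATV-CD98hc fell (-4.14 and -4.71, and -6.60 and -4.09). The difference of the ratio itself was not tested. Of its parts, the change in cell number from the negative to the medium bin differed between the treatments for microglia (-2.90, adjusted p = 0.0022, edgeR's quasi-likelihood test) and did not pass for oligodendrocytes (0.84, adjusted p = 0.25).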

How the results depend on the processing

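The fall of the oligodendrocyte share with fluorescence kept its direction and call in both ATVs under every alternative with both pools, and its direction with 1 pool left out (-2.17 to -1.91 in ATV-TfR, -2.36 to -1.996 in ATV-CD98hc), where 4 libraries allow no p below 0.083. In control IgG it passed with doublets removed (-1.16), with at least 3 rule genes (-1.19) and with endothelial barcodes out of the denominator (-1.40), and ranged from -1.75 to 0.18 with 1 replicate left out. The trend of the ratio to microglia ranged from -0.37 to 0.16, -1.85 to -1.0002 and -2.89 to -0.57 with 1 replicate left out. Cell number changes in both ATVs kept their calls. With 1 replicate left out the changes ranged over -3.56 to -3.01, -5.15 to -5.02 and -9.67 to -8.19 in ATV-TfR. They ranged over -4.21 to -3.80, -6.01 to -5.83 and -10.8 to -8.81 in ATV-CD98hc and -5.45 to -5.13, -13.5 to -6.43 and -13.5 to -7.17 in control IgG. The difference of the changes between ATVs was 0.42 to 0.98, 0.75 to 0.93 and -0.23 to 2.08 in the low, medium and high bins. It turned to -1.92 in the medium bin with endothelial barcodes out of the denominator (adjusted p = 0.0077, edgeR), and reached 4.40 in the high bin with TMM factors over the classes (adjusted p = 0.00054), both past the threshold that the main values missed. The cause of these changes was not tested.

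Leaving out members that met another rule gave 586, 411 and 304 called genes in the low bins of ATV-TfR and ATV-CD98hc and the medium bin of ATV-CD98hc, where no filter gave 731 and at least 4 times the other markers 237. For negative bins, ATV-TfR against ATV-CD98hc gave 33 genes with DESeq2, 314 with no filter, 33 with at least 10 CPM, 5 with doublets removed, 108 with at least 5 rule genes, 117 with at least 4 times the other markers and 13 without members of another rule. Against control IgG these were 457 (no filter), 16 (doublets removed) and 29 (other rule) in ATV-TfR, and 157, 9 and 27 in ATV-CD98hc, with 9 at 4 times the other markers. For changes against microglia, no filter gave 775 and 707 in the low bins and 275 in the medium bin of ATV-CD98hc, where DESeq2 gave 215 and doublet removal 230. With 1 replicate left out, the counts ranged from 564 to 1426, 809 to 3119, 429 to 1005 and 195 to 460 between bins, from 0 to 90, 50 to 260 and 13 to 77 between negative bins, and from 3 to 572, 25 to 1056, 0 to 509 and 0 to 158 against microglia. With the pool number as a replicate block, 168 and 320 genes differed between the negative bins of ATV-TfR and of ATV-CD98hc or control IgG, where the number names no shared animals, and 198 against microglia in the medium bin of ATV-CD98hc; the block ended no call of a single gene.

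Of the changes of single genes under all alternatives, 4044 kept direction and call, 488 lost the call and 13 changed sign. The sign changed in the medium bin of ATV-TfR for Kcnb2 (-2.61), Snap25 (-1.99), Syt1 (-0.66), Vsnl1 (-1.54) and Meg3 (-1.48) with at least 5 rule genes, for Fcer1g (0.25) without members of another rule, for Il1b with doublets removed (-0.44) and with 1 ATV-TfR pool left out (-5.74 to 9.003), as for Junb (-0.18 to 2.13). It changed in the medium bin of ATV-CD98hc for Tnr (-0.10 with at least 5 rule genes, -5.59 to 4.03 with 1 ATV-CD98hc pool left out), and against control IgG for Vsnl1 (0.84) and Adarb2 (0.17) with at least 5 rule genes. Sensitivity to depth was limited by the 55 to 105 members of the medium bins, and the high bins, under the minimum of 20 members per library, were not tested for expression.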
